A study of Mus musculus with 15 samples.

Results

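The genes described here encode Golgi glycosyltransferases and Golgi mannosidases, the enzymes that build and trim the sugar chains of glycoproteins and glycolipids. They were chosen by symbol: the sialyltransferase families St3gal, St6gal, St6galnac and St8sia, the N-acetylglucosaminyltransferase family Mgat, the mannosidases Man1a, Man1c and Man2a, the fucosyltransferases Fut, the galactosyl- and N-acetylglucosaminyltransferases B3galt, B4galt and B3gnt, and the polypeptide N-acetylgalactosaminyltransferases Galnt. The rule found 59 of the 13676 genes with a named probe in the normalized value table, and each gene was read from its brightest probe. The 59 genes comprised 13 sialyl-, 5 fucosyl- and 7 branching transferase genes, and 5 trimming mannosidase genes. The other transferase genes were 16 of the B3galt, B4galt and B3gnt families, grouped here as galactosyl- and poly-lactosamine, and 13 mucin-type.

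Expression was measured on Illumina bead arrays in mouse peritoneal macrophages elicited with thioglycollate, harvested 4 or 5 days after the injection and cultured in medium with 0.5% serum and 5.5 mM glucose. Unstim cells received vehicle for 24 h, LPS cells received bacterial lipopolysaccharide at 10 ng/ml for 24 h, FA cells were loaded with fatty acid and received vehicle, and FA+LPS cells were loaded and then received LPS at the same dose and for the same time. The 15 arrays came from 4 independent experiments, with 4 arrays each for FA, LPS and FA+LPS and 3 for Unstim (experiments 1, 3 and 4). They lay on 3 slides, as read from the array identifiers. Experiments 1, 2 and 3 lay on slides 1, 2 and 3. Experiment 4 had FA on slide 1, LPS and FA+LPS on slide 2 and Unstim on slide 3. Slide 2 held no Unstim array. Differences inside experiment 4 therefore cross slides, except that of FA+LPS against LPS. The study's title concerns triglyceride retention after Toll-like receptor stimulation; the sources used here do not give the fatty acid, its dose, the strain, genotype, sex and age of the mice, or any pooling of animals.

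The macrophage label was checked against marker genes, and of the 9 on the array Adgre1, Csf1r, Lyz2, Itgam, Mertk, Msr1 and Cd14 were above background on all 15 arrays, Marco on 13 and Fcgr1 on 11. Levels of these markers moved with LPS. In LPS against Unstim, 4 of the 9 were called higher and 2 lower, where 22.3% of all genes tested were called. In FA+LPS against FA, 5 were called higher and 1 lower, beside 19.8% of all genes. Adgre1 rose by 1.81 and 2.13 on the log2 scale, and Mertk gave -0.85 and -0.96. The 5 genes set as a check of LPS exposure (Il1b, Tnf, Cxcl1, Ccl5 and Isg15) were called higher in both comparisons with LPS, 5 of 5 each time. FA replicate 1 was a dim array, with 15781 probes above background against 17970 to 18998 on the other 14. In such bulk samples, fewer cells of a type and less RNA per cell cannot be told apart.

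Glycans are made stepwise as proteins pass through the Golgi. N-linked chains arrive from the endoplasmic reticulum rich in mannose, are trimmed by mannosidases, receive N-acetylglucosamine branches, and are then extended with galactose, poly-lactosamine, fucose and sialic acid. Mucin-type O-glycans start with N-acetylgalactosamine on serine or threonine. On macrophages the finished chains are read by siglecs, galectins and selectins, and terminal sialic acid is a ligand of inhibitory siglecs.

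Promoter windows are shown for the gene with the largest LPS difference of the set, St6gal1, and for the pair of genes that differed between FA+LPS and LPS, B3gnt8 and Man2a1. Each window runs from 250 bases before to 50 bases after an annotated transcript start (RefSeq, GRCm38.p6, all on the + strand, 5′ to 3′). Capitals mark matches, on either strand, to GGGNNNNNCC, a loose form of the NF-kB site, and matches that overlap run together.
St6gal1 window A, chr16:23224490-23224789: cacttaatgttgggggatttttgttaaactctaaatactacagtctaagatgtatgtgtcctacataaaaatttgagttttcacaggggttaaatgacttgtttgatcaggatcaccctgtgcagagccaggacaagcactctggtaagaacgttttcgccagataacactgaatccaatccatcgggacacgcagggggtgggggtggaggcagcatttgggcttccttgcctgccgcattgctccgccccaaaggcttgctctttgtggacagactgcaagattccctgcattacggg
St6gal1 window B, chr16:23225771-23226070: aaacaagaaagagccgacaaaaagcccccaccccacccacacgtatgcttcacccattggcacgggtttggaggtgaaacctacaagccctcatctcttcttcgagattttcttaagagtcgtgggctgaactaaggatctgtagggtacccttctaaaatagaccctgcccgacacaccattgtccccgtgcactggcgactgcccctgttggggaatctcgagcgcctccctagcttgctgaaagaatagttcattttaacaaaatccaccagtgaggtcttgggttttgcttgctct
St6gal1 window C, chr16:23290220-23290519: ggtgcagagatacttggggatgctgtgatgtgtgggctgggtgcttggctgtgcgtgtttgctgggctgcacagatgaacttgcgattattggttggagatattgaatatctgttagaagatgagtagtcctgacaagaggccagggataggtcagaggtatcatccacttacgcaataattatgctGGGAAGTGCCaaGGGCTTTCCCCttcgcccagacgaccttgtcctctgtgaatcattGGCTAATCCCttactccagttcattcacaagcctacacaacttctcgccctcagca
B3gnt8, chr7:25627374-25627673: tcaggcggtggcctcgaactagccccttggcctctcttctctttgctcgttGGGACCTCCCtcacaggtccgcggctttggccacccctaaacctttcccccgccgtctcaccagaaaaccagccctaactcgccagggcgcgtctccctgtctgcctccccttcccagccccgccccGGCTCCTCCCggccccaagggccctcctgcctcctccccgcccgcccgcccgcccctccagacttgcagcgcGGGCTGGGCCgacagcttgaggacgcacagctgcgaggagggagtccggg
Man2a1, chr17:64601399-64601698: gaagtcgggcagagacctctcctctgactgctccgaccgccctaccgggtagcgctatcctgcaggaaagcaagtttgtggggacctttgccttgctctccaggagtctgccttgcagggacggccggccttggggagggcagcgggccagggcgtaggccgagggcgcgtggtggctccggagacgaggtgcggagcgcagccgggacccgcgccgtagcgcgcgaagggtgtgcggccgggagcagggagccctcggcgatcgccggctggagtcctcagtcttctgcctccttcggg
St6gal1 has 3 annotated windows, of which only window C holds a match. B3gnt8 has matches in its window, and the Man2a1 window has none. That Man2a1 window lies inside the gene's span, chr17:64600688-64755110, and the sequence around the first base of the span was not examined. The same letters occur in 50.8% of the 32851 mouse promoter windows of this length. Among the 42 members with a window in the table, 33 hold the motif in at least 1 window. This counts genes, and members such as St6gal1 have several windows, whereas 50.8% is a share of single windows. The count therefore cannot be compared with that share, and no share by gene is given for all genes. None of the 42 members holds the interferon-stimulated response element TTTCNNTTTC, which occurs in 3.44% of all windows. A match describes the letters only.

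Of the 59 genes, 55 passed the filter for a test (probe above background on at least 3 arrays), and 34 were above background on all 15 arrays. B3gnt2, Galnt3, Galnt4 and Galnt17 did not pass. Levels are log2 intensities after background correction and quantile normalization, differences are log2 differences of group means with their standard error from limma, and a gene was called at a Benjamini-Hochberg adjusted p below 0.05 over the 12961 genes tested. A probe's intensity depends on its sequence, so levels are compared between arrays and never between genes. Values by array are listed in the order of the experiments, 1, 3 and 4 for Unstim and 1 to 4 for the other groups.

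With LPS, calls among these genes ran more often lower than higher, as they did over all genes tested. In LPS against Unstim, 14 of the 55 were called, 2 higher (Mgat4a and St3gal1) and 12 lower (St6gal1, St8sia4, Fut4, Fut8, Man1c1, Man2a2, Mgat5, B3gnt3, B3gnt8, B4galt6, Galnt1 and Galnt11). The background over all genes tested was 22.3% called in either direction, 8.99% higher and 13.3% lower, against 25.5% of the members. In FA+LPS against FA, 19 were called, 7 higher (Mgat4a, St3gal1, St6galnac2, Man2a1, B3galt6, B4galt1 and Galnt10) and 12 lower (St6gal1, St8sia4, St3gal5, St6galnac4, Fut4, Man1c1, Man2a2, Mgat5, B3gnt3, B3gnt8, B4galt5 and B4galt6), against a background of 19.8% (8.4% higher and 11.4% lower). The 2 comparisons share no arrays, but their arrays came from the same experiments, so they are not independent. Deviations from group means of same-numbered LPS and FA+LPS arrays correlated at 0.56 to 0.81. Called in both comparisons were 11 genes, 2 higher and 9 lower. These are 78.6% of the first set of calls and 57.9% of the second. The matching percentages over all genes tested are not given here, so these percentages cannot be read as particular to this set. The median log2 difference of the 55 genes was -0.08 in LPS against Unstim and -0.09 in FA+LPS against FA, where that of all genes tested was -0.02 and -0.01. When arrays were scaled by their medians in place of quantile normalization, 3 genes remained called in the first comparison, 0 higher and 3 lower (St6gal1, Man2a2 and B3gnt8). In the second 6 remained, 4 higher (Man2a1, Mgat4a, St3gal1 and B3galt6) and 2 lower (St6gal1 and Man2a2), so that higher calls outnumbered lower ones there. In that comparison the median of all genes tested was 0.05 under median scaling, beside -0.01 under quantile normalization. The shares of all genes called higher and lower under median scaling are not given here. This balance therefore cannot be read as particular to the set. No called difference of a gene described in full below turned its sign under this scaling.

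**Figure D1:**
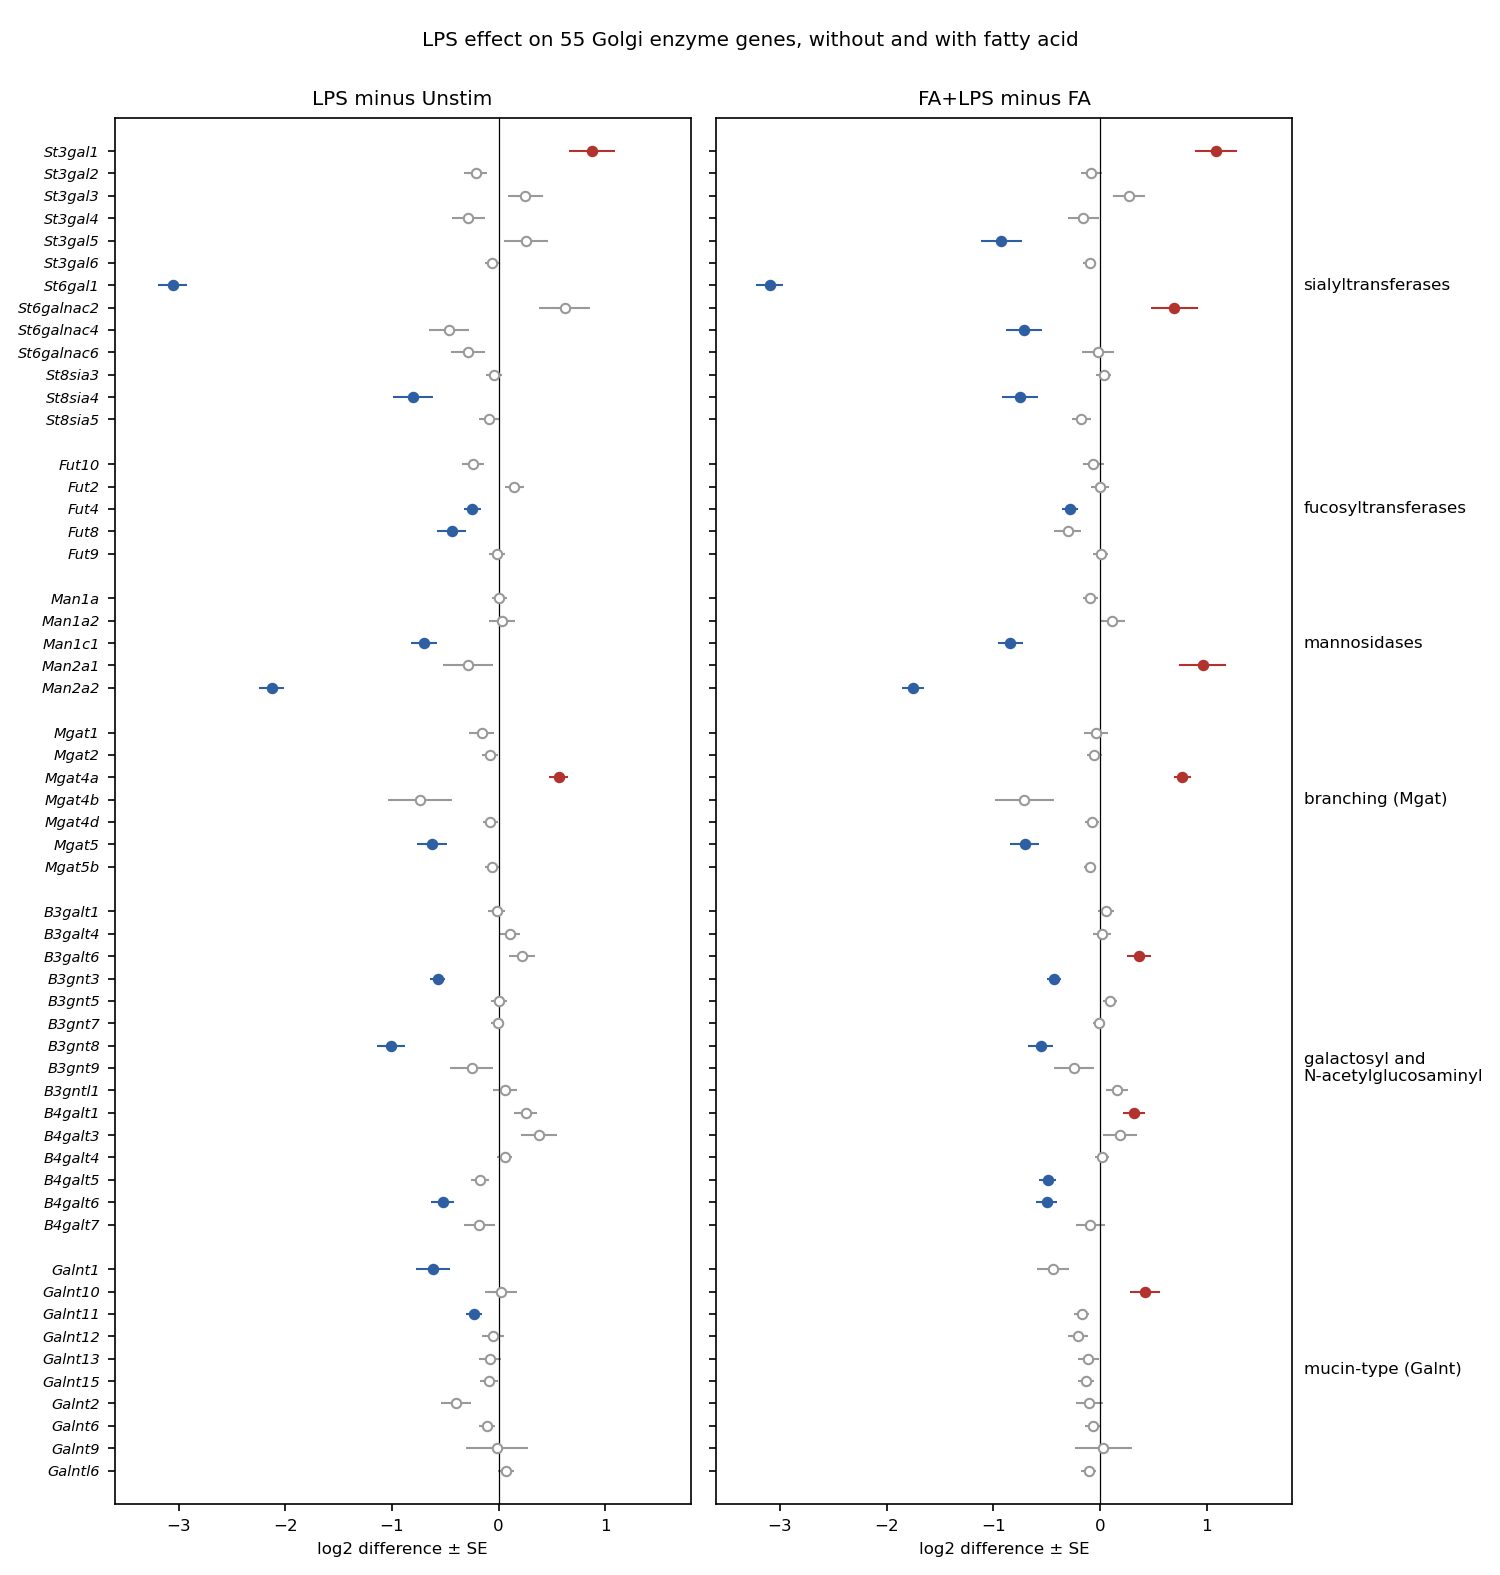
Log2 difference with LPS for the 55 tested genes, ordered by glycosylation step, without fatty acid (LPS against Unstim) and with it (FA+LPS against FA). Points are fitted differences, bars are standard errors, filled red and blue points are genes called higher and lower, and open grey points are not called. St6gal1, at -3.06 and -3.10, and Man2a2, at -2.13 and -1.75, lie farthest from 0 in both panels.

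Among the 13 sialyltransferase genes, St6gal1 fell with LPS more than any other gene of the set. St6gal1 adds sialic acid to the terminal galactose of N-glycans, in the linkage that the siglec CD22 reads. Its gene lies at chr16:23224729-23360350. It measured 10.26, 10.32 and 10.39 on the Unstim arrays and 10.36, 10.29, 9.83 and 10.25 on the FA arrays. With LPS it measured 7.29, 7.27, 7.12 and 7.39, and with FA+LPS 7.23, 6.82, 6.96 and 7.34. All 8 arrays with LPS lay below all 7 without. The difference was -3.06 ± 0.13 without fatty acid, an 8.31-fold decrease (adjusted p = 9.33e-10), and -3.10 ± 0.12 with it, an 8.55-fold decrease (adjusted p = 3.17e-10). Within slides, LPS against Unstim gave -2.96 on slide 1 and -3.24 on slide 3.

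St8sia4, a polysialyltransferase (chr1:95587682-95667717), fell as well. It measured 8.94, 8.70 and 8.83 in Unstim and 9.07, 8.60, 8.61 and 8.98 in FA. Its values were 8.26, 7.67, 7.77 and 8.38 in LPS and 8.30, 8.12, 7.69 and 8.15 in FA+LPS. The groups with and without LPS did not overlap in either comparison. The log2 difference was -0.80 ± 0.18 (adjusted p = 0.00508) without and -0.75 ± 0.17 (adjusted p = 0.00487) with fatty acid. Its other probe was also called lower in LPS against Unstim, at -0.59, and was at -0.27 in FA+LPS against FA, where it was not called.

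St3gal1 went the other way. It sialylates the galactose of the simplest mucin-type O-glycan core and lies at chr15:67102875-67176946. St3gal1 measured 6.95, 6.90 and 6.98 in Unstim and 6.02, 6.70, 6.25 and 6.71 in FA, where replicate 1, the dim array, was not above background. It measured 7.37, 7.87, 7.72 and 8.32 in LPS and 7.27, 7.65, 7.29 and 7.84 in FA+LPS. Every array with LPS was above every array without. The gene rose by 0.88 ± 0.21, or 1.83-fold, in LPS against Unstim (adjusted p = 0.00723) and by 1.09 ± 0.20, or 2.13-fold, in FA+LPS against FA (adjusted p = 0.000830). Its other probe was called higher in both comparisons, at 0.40 and 0.38.

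**Figure D2:**
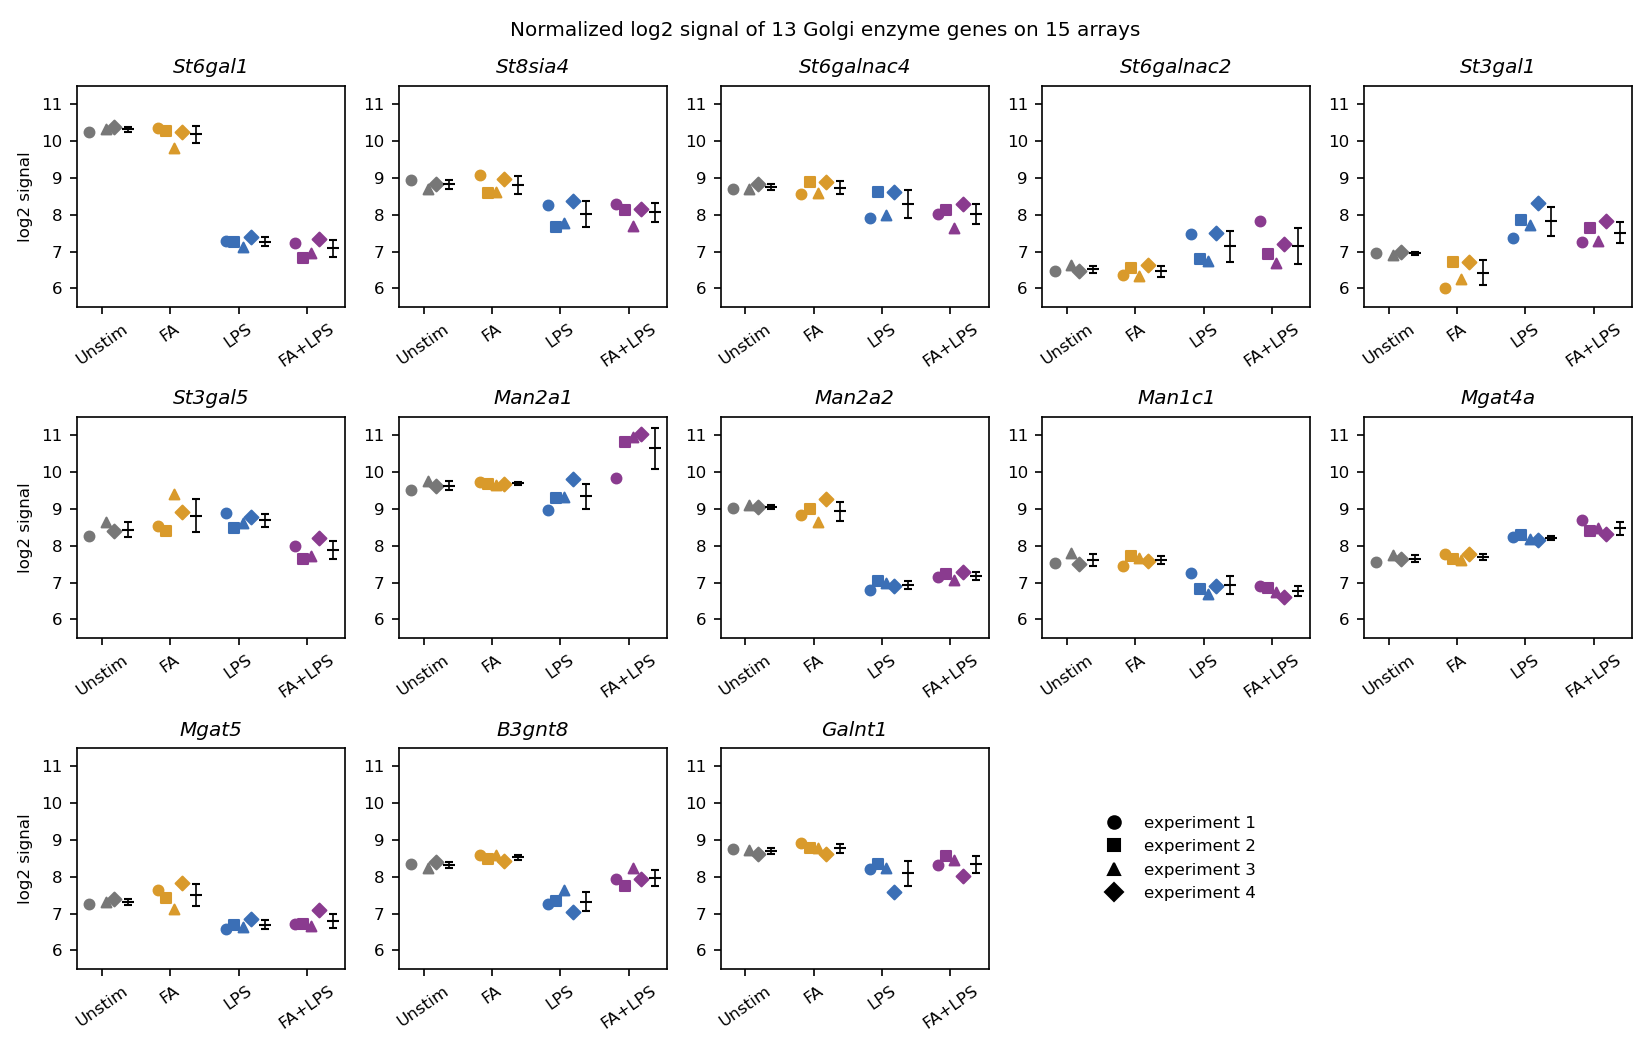
Log2 intensity of the 13 genes described in full, on each array by group. The marker shape gives the experiment, and the black tick and bar give the group mean and SD. St6gal1 and Man2a2 drop in both LPS groups, St3gal1 and Mgat4a rise in both, and Man2a1 is higher in FA+LPS than in the other 3 groups.

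St6galnac2 and St6galnac4, which put sialic acid on the N-acetylgalactosamine of O-glycans, moved in opposite directions. St6galnac2 (chr11:116676703-116695782) measured 6.46, 6.62 and 6.47 in Unstim, 6.35, 6.55, 6.32 and 6.63 in FA, 7.48, 6.81, 6.75 and 7.51 in LPS and 7.82, 6.93, 6.68 and 7.20 in FA+LPS. Its arrays with LPS were all above those without, though they spread widely, from 6.68 to 7.82. The gene rose by 0.70 ± 0.22 in FA+LPS against FA (adjusted p = 0.0371), a call lost when FA replicate 1, 2 or 3 or FA+LPS replicate 1 or 4 was left out (adjusted p = 0.0621 to 0.103, the highest without FA+LPS replicate 1, where the difference was 0.47). In LPS against Unstim it gave 0.62 ± 0.24 (adjusted p = 0.0811), which was called with experiment as a replicate block, at 0.67 ± 0.20 (adjusted p = 0.0256).

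St6galnac4 (chr2:32587078-32599696) measured 8.70, 8.70 and 8.84 in Unstim and 8.56, 8.89, 8.59 and 8.88 in FA. Its values with LPS were 7.92, 8.60, 7.98 and 8.63, and with FA+LPS 8.02, 8.13, 7.64 and 8.28. All FA+LPS arrays were below all FA arrays, and the gene fell by 0.71 ± 0.17 (adjusted p = 0.00725); 2 of its 3 other probes were called lower too, at -0.54 and -0.70. In LPS against Unstim the difference was -0.46 ± 0.18 (adjusted p = 0.0949) and was called with the replicate block, at -0.53 ± 0.11 (adjusted p = 0.00313).

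St3gal5, which makes the ganglioside GM3 from lactosylceramide, was the sialyltransferase whose level differed most between FA+LPS and LPS. It lies at chr6:72097552-72154571. St3gal5 measured 8.26, 8.65 and 8.40 in Unstim and 8.54, 8.40, 9.40 and 8.91 in FA. It measured 8.89, 8.48, 8.61 and 8.79 in LPS and 7.99, 7.65, 7.72 and 8.20 in FA+LPS. The FA+LPS arrays lay below all arrays of the other 3 groups, which overlapped one another. St3gal5 fell by 0.92 ± 0.19 in FA+LPS against FA (adjusted p = 0.00227), while LPS against Unstim gave 0.25 ± 0.20 (adjusted p = 0.485).

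The remaining 7 sialyltransferase genes were called in neither comparison, with differences from -0.17 to 0.27 in FA+LPS against FA. In LPS against Unstim, the 10 sialyltransferase genes not called lay between -0.46 and 0.62. St3gal3, which sialylates galactose on N-glycans, gave 0.25 ± 0.16 in LPS against Unstim and 0.27 ± 0.15 in FA+LPS against FA.

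The trimming mannosidases were divided. Man2a1 and Man2a2 encode Golgi alpha-mannosidases II and IIx, which remove the last pair of mannoses before complex branches are built, and Man1c1, Man1a and Man1a2 encode enzymes of the earlier trimming step. Man2a2 (chr7:80349095-80371483) measured 9.01, 9.11 and 9.05 in Unstim and 8.84, 8.99, 8.64 and 9.26 in FA. It fell to 6.79, 7.04, 6.98 and 6.92 in LPS and 7.14, 7.24, 7.06 and 7.28 in FA+LPS, with every LPS-treated array below every array without LPS. The change was -2.13 ± 0.12, a 4.37-fold decrease, in LPS against Unstim (adjusted p = 7.97e-09) and -1.75 ± 0.11, a 3.37-fold decrease, in FA+LPS against FA (adjusted p = 1.99e-08). This brightest probe has a gene symbol but no transcript accession in the annotation, and the 3 other Man2a2 probes, above background on 11 to 13 arrays, gave -0.22, -0.14 and 0.01 in LPS against Unstim. Of those, the probe at -0.22 was called (adjusted p = 0.0300).

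Man1c1 (chr4:134561690-134704290) also fell. Its levels were 7.54, 7.81 and 7.50 in Unstim, 7.46, 7.72, 7.65 and 7.60 in FA, 7.26, 6.81, 6.69 and 6.91 in LPS and 6.90, 6.85, 6.73 and 6.60 in FA+LPS. Arrays with and without LPS did not overlap. The differences were -0.70 ± 0.12 (adjusted p = 0.000690) and -0.84 ± 0.11 (adjusted p = 7.35e-05). Its other probe above background on all 15 arrays gave -0.30, which was not called, and -0.46, which was, and its remaining probe, above background on 9, gave -0.08 and -0.15 and was not called. Man1a gave 0.01 ± 0.07 in LPS against Unstim and -0.09 ± 0.07 in FA+LPS against FA, and Man1a2 gave 0.03 ± 0.13 and 0.11 ± 0.12; neither was called.

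Man2a1 was higher in FA+LPS than in each of the other 3 groups. It lies at chr17:64600688-64755110. Man2a1 measured 9.52, 9.76 and 9.62 in Unstim and 9.74, 9.69, 9.66 and 9.69 in FA. In LPS it measured 8.98, 9.29, 9.33 and 9.80, and in FA+LPS 9.83, 10.81, 10.95 and 11.04. All 4 FA+LPS arrays were above all other arrays, though replicate 1, at 9.83, was close to LPS replicate 4, at 9.80. LPS against Unstim gave -0.28 ± 0.24 (adjusted p = 0.508), with overlapping groups, whereas FA+LPS against FA gave a rise of 0.96 ± 0.22, or 1.95-fold (adjusted p = 0.00490). That rise was 0.12 on slide 1, which held FA+LPS replicate 1, and 1.24 and 1.29 on slides 2 and 3.

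In the branching step, Mgat4a rose and Mgat5 fell. Mgat4a (chr1:37439340-37541060) adds an N-acetylglucosamine branch to N-glycans, and Mgat5 (chr1:127204919-127488334) adds the branch that is favoured for poly-lactosamine and galectin binding. Mgat4a measured 7.55, 7.75 and 7.65 in Unstim and 7.77, 7.65, 7.61 and 7.78 in FA. Its values were 8.23, 8.28, 8.19 and 8.16 in LPS and 8.71, 8.39, 8.48 and 8.31 in FA+LPS, all above the arrays without LPS. The gene rose by 0.56 ± 0.09, or 1.48-fold (adjusted p = 0.000223), and by 0.77 ± 0.08, or 1.71-fold, with fatty acid (adjusted p = 5.52e-06). This probe too has no transcript accession in the annotation, and the other Mgat4a probe, above background on 6 arrays, gave 0.14 and 0.04 and was not called.

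Mgat5 measured 7.25, 7.30 and 7.40 in Unstim, 7.65, 7.42, 7.11 and 7.82 in FA, 6.58, 6.68, 6.64 and 6.86 in LPS and 6.72, 6.70, 6.67 and 7.09 in FA+LPS. FA+LPS replicate 4, at 7.09, was the LPS-treated array nearest to those without LPS. Its log2 differences were -0.63 ± 0.14 (adjusted p = 0.00502) and -0.71 ± 0.13 (adjusted p = 0.00117), and the groups did not overlap in either comparison. Mgat4b, an isoenzyme of Mgat4a, gave -0.74 ± 0.30 (adjusted p = 0.105) and -0.71 ± 0.28 (adjusted p = 0.0987), both called with the replicate block (adjusted p = 0.0398 and 0.0365). Mgat1, which opens the branching step, gave -0.16 ± 0.12 and -0.04 ± 0.11 and was not called.

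The B3galt, B4galt and B3gnt families, which act on several kinds of glycan, had 15 tested genes. Of these, B3gnt3, B3gnt8 and B4galt6 were called lower in both comparisons. B3gnt8 (chr7:25627600-25629492) extends poly-lactosamine on branched N-glycans. It measured 8.34, 8.24 and 8.41 in Unstim and 8.59, 8.49, 8.58 and 8.44 in FA. With LPS it measured 7.26, 7.34, 7.65 and 7.04, and with FA+LPS 7.94, 7.74, 8.25 and 7.95. The LPS arrays were the lowest, the FA+LPS arrays lay above them without overlap, and each LPS-treated group lay below its own control. B3gnt8 fell by 1.01 ± 0.13 in LPS against Unstim (adjusted p = 3.58e-05) and by 0.56 ± 0.12 in FA+LPS against FA (adjusted p = 0.00305). Its other probe, annotated to a different transcript, gave -0.09 and -0.03 and was not called.

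B3gnt3, which elongates the O-glycan core, fell by 0.57 ± 0.07 (adjusted p = 3.30e-05) and 0.43 ± 0.07 (adjusted p = 0.000217). B4galt6, a lactosylceramide synthase, gave -0.53 ± 0.11 (adjusted p = 0.00268) and -0.50 ± 0.10 (adjusted p = 0.00224). B4galt5, the other lactosylceramide synthase, was called lower in FA+LPS against FA, at -0.49 ± 0.08 (adjusted p = 0.000360), and gave -0.18 ± 0.09 in LPS against Unstim (adjusted p = 0.189). Small rises in FA+LPS against FA were called for B4galt1, which adds galactose to N-acetylglucosamine, at 0.32 ± 0.10 (adjusted p = 0.0365), and for B3galt6, which builds the linker of proteoglycans, at 0.36 ± 0.11 (adjusted p = 0.0329). In LPS against Unstim these gave 0.25 ± 0.11 and 0.22 ± 0.12 and were not called. B4galt3, another galactosyltransferase that acts on N-acetylglucosamine, gave 0.38 ± 0.17 in LPS against Unstim (adjusted p = 0.147) and was called higher with the replicate block, at 0.36 ± 0.11 (adjusted p = 0.0249).

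All 5 fucosyltransferase genes were tested. Fut4, which makes Lewis x type structures, was called lower in both comparisons by small amounts, -0.25 ± 0.08 (adjusted p = 0.0458) and -0.28 ± 0.08 (adjusted p = 0.0160); with all probes as features the first call was lost (adjusted p = 0.0502). Fut8, which adds the core fucose of N-glycans, was called lower in LPS against Unstim, at -0.44 ± 0.14 (adjusted p = 0.0303), and gave -0.30 ± 0.13 in FA+LPS against FA (adjusted p = 0.119). The other 3 lay between -0.24 and 0.15 in LPS against Unstim.

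Of the 10 mucin-type initiating enzymes tested, Galnt1 and Galnt11 were called lower in LPS against Unstim. Galnt1, at chr18:24205321-24286816, measured 8.76, 8.74 and 8.61 in Unstim, 8.91, 8.79, 8.79 and 8.61 in FA, 8.22, 8.33, 8.23 and 7.59 in LPS and 8.32, 8.55, 8.46 and 8.02 in FA+LPS. Both LPS-treated groups lay below their controls, with LPS replicate 4 far below the other 3 LPS arrays. Galnt1 gave -0.61 ± 0.16 in LPS against Unstim (adjusted p = 0.0114). Another of its 4 probes was called lower too, at -0.61, and the values of the remaining probes are not given here. FA+LPS against FA gave -0.44 ± 0.15 (adjusted p = 0.0501), which was called with the replicate block (adjusted p = 0.00278). Galnt11 gave -0.23 ± 0.08 in LPS against Unstim (adjusted p = 0.0445). Galnt10 was called higher in FA+LPS against FA, at 0.42 ± 0.14 (adjusted p = 0.0463, and 0.0502 with all probes as features, where the call was lost), and gave 0.02 ± 0.15 in LPS against Unstim. Galnt2 gave -0.40 ± 0.14 in LPS against Unstim (adjusted p = 0.0505) and was called with the replicate block (adjusted p = 0.0189).

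Fatty acid without LPS left no gene of the set past the threshold. In FA against Unstim, limma called 0 of the 55, and 1 had an unadjusted p below 0.05; over all genes tested the corresponding share called was 0.00772%, and 373 genes had an unadjusted p below 0.05. The differences of 52 of the 55 genes lay within 0.2 of 0 on the log2 scale. The gene with the unadjusted p below 0.05 was St3gal1, at -0.52 ± 0.21 (adjusted p = 1.00), lower in FA in all 3 experiments that held both arrays, by 0.27 to 0.93, the largest of these on the dim array.

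Fatty acid in the presence of LPS raised Man2a1 and B3gnt8. In FA+LPS against LPS these were the 2 genes called of 55 (3.64%), both higher, against a background of 0.687% of all genes tested (0.378% higher and 0.309% lower). Man2a1 was higher by 1.31 ± 0.22, or 2.48-fold (adjusted p = 0.00998), and was higher in all 4 experiments, by 0.86 to 1.62. B3gnt8 was higher by 0.65 ± 0.12, or 1.57-fold (adjusted p = 0.0188), and was higher in all 4 experiments, by 0.39 to 0.91. Each of these differences rests on 1 probe. Man2a1 had no other named probe in the value table. For the other B3gnt8 probe, which was not called with LPS, the difference in this comparison is not given here. The B3gnt8 call was lost without LPS replicate 1, LPS replicate 4 or FA+LPS replicate 3 (adjusted p = 0.0523, 0.0577 and 0.0560), and under median scaling neither gene was called (log2 differences 1.37 and 0.72, adjusted p = 0.441 and 0.856). With the replicate block 4 genes were called: these 2, Galnt10 at 0.38 ± 0.08 (adjusted p = 0.0200) and St3gal5 at -0.80 ± 0.16 (adjusted p = 0.0196). The share of all genes called with the block is not given here.

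**Figure D3:**
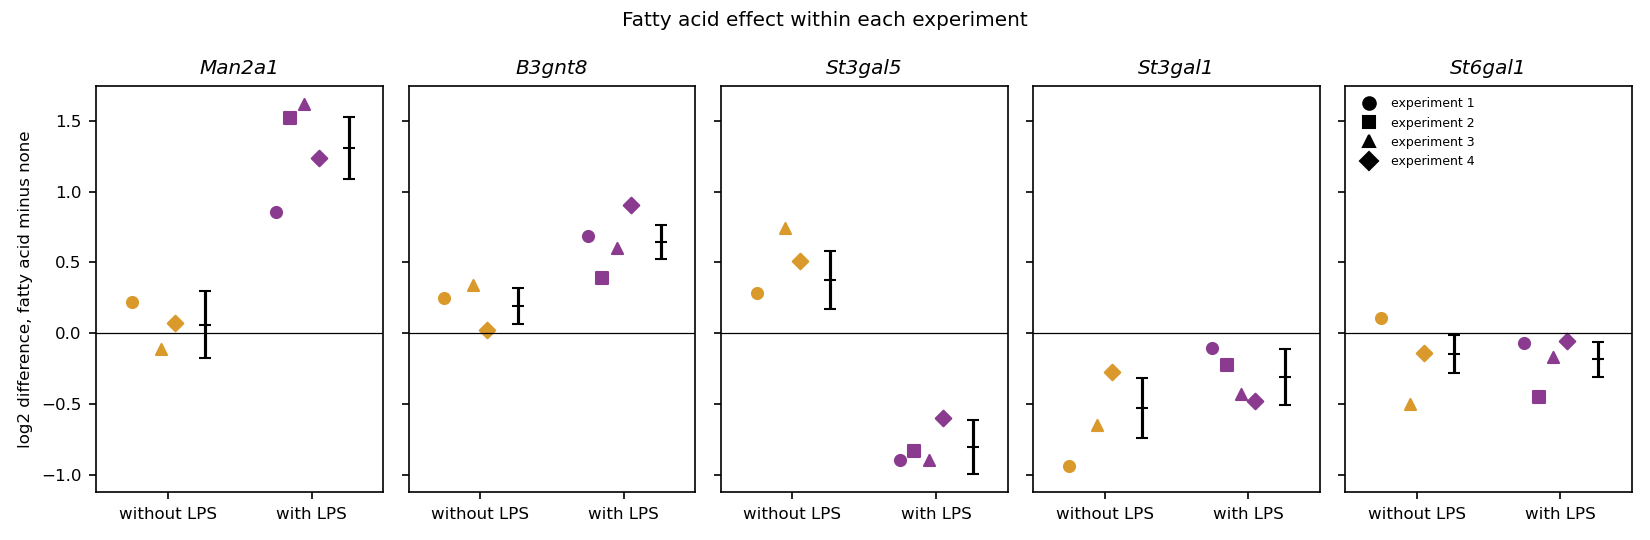
Log2 difference with fatty acid inside each experiment, without LPS (FA minus Unstim, 3 experiments) and with LPS (FA+LPS minus LPS, 4 experiments), for 5 genes. Marker shape gives the experiment, and the black point and bar give the fitted difference and its standard error. Man2a1 and B3gnt8 are above 0 in all 4 experiments with LPS, and St3gal5 is above 0 in all 3 without LPS and below 0 in all 4 with it.

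St3gal5 fell short of the threshold in FA+LPS against LPS without the block, at -0.80 ± 0.19 (adjusted p = 0.0735). Inside the experiments its FA difference was 0.29, 0.75 and 0.51 without LPS (experiments 1, 3 and 4). With LPS it was -0.90, -0.83, -0.89 and -0.60 (experiments 1 to 4). The sign was opposite with and without LPS in the 3 experiments that had both differences. Its other probe gave 0.20 in FA against Unstim and -0.46 in FA+LPS against LPS and was called in neither.

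The difference between the fatty acid effects with and without LPS was tested as an interaction. No gene of the set was called by limma, where 0.0463% of all genes tested were called (0.0309% higher and 0.0154% lower). In limma, 5 of the 55 genes had an unadjusted p below 0.05, as did 630 of all 12961 genes tested. The interaction was 1.25 ± 0.32 for Man2a1 (adjusted p = 0.399), -1.18 ± 0.28 for St3gal5 (adjusted p = 0.306) and 0.45 ± 0.17 for B3gnt8 (adjusted p = 0.846). Without FA+LPS replicate 1, Man2a1 was called, at 1.52 (adjusted p = 0.0209). With experiment as a replicate block and all arrays kept, the limma interaction was 1.26 ± 0.26 for Man2a1 (adjusted p = 0.093). It was -1.28 ± 0.23 for St3gal5 (adjusted p = 0.06) and 0.43 ± 0.16 for B3gnt8 (adjusted p = 0.421), none of them called.

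Cells given both treatments were also set against Unstim. In FA+LPS against Unstim, 13 of 55 genes were called, 2 higher (Man2a1 and Mgat4a) and 11 lower (St6gal1, St6galnac4, St8sia4, Fut8, Man1c1, Man2a2, Mgat5, B3gnt3, B4galt5, B4galt6 and Galnt11), against a background of 18.3% (7.57% higher and 10.8% lower). St6gal1 was lower by 3.24 ± 0.13 on the log2 scale and Man2a2 gave -1.88 ± 0.12. Man2a1 was higher by 1.02 ± 0.24 (adjusted p = 0.00609) and Mgat4a by 0.82 ± 0.09 (adjusted p = 7.60e-06). B3gnt8 gave -0.36 ± 0.13 (adjusted p = 0.0666), with groups that overlapped. St3gal1, at 0.57 ± 0.21 (adjusted p = 0.0861), was called with the replicate block, at 0.51 ± 0.13 (adjusted p = 0.00973), as were St6galnac2, Galnt1, Galnt10 and B3galt6. This comparison shares arrays with those above and adds no independent evidence.

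Of the markers of other cells that a peritoneal harvest can hold, some were called with LPS, and some summed levels moved with it. Over all genes tested, 22.3% were called in LPS against Unstim and 19.8% in FA+LPS against FA. The summed log2 level of the 4 B cell markers on the array ran from 8.25 to 8.38 in Unstim, 8.30 to 8.34 in FA, 8.08 to 8.21 in LPS and 8.09 to 8.24 in FA+LPS. Of these markers Cd22 was called lower in both LPS comparisons, at -0.43 and -0.35, and Pax5 was above background on 2 arrays. The summed level of 2 T and NK cell markers, Cd2 and Il7r, ran from 10.06 to 11.29 without LPS and from 9.14 to 9.99 with it; Il7r was called lower (-1.10 and -1.28). The sums of 5 neutrophil, 5 dendritic cell and 6 mesothelial and fibroblast markers were higher in every LPS-treated array than in any array without LPS. Of the neutrophil markers S100a8 (1.09 and 2.16) and Camp (0.33 and 0.53) were called higher, Ltf was called lower (-0.53 and -0.52), and Mmp8 and Cxcr2 were not called. Batf3 was the 1 called of 4 tested dendritic cell markers (2.18 and 2.24), and Dcn the 1 called of 6 mesothelial and fibroblast markers (2.26 and 2.02). The median LPS differences of these 3 lists were 0.02, 0.13 and -0.0034 without fatty acid. The summed eosinophil and mast cell level ran from 7.56 to 7.77 without LPS and from 7.61 to 8.48 with it, and Kit was the 1 called of its 3 tested markers in LPS against Unstim (1.13). The part of these cells in the differences of the glycosylation genes was not tested.

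Genes that make and carry the sugar donors of these enzymes were read in 2 further lists, as mRNA levels. The donors themselves were not measured. Of 21 sugar nucleotide synthesis genes, 4 were called higher and 5 lower in LPS against Unstim, and 2 higher and 3 lower in FA+LPS against FA, where all genes tested had 22.3% and 19.8% called. Those higher in LPS against Unstim were Pmm2 (0.61 ± 0.15), Gfpt2 (0.47 ± 0.08), Pmm1 (0.39 ± 0.13) and Gmppb (0.38 ± 0.12), of mannose activation and hexosamine synthesis. Those lower in the first comparison included Nans, at -0.64 ± 0.10, and Cmas, at -0.49 ± 0.12, which make and activate sialic acid, and Nagk, the N-acetylglucosamine kinase, at -1.28 ± 0.14. Cmas and Nagk were called lower in FA+LPS against FA as well, at -0.47 and -1.32. Of 12 Golgi sugar nucleotide transporter genes, 1 was called higher and 3 lower in each comparison. Slc35a3, which carries UDP-N-acetylglucosamine, gave -0.37 in both.

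Among 20 Golgi transferase genes outside the symbol rule, 3 were called higher and 4 lower in LPS against Unstim (22.3% of all genes tested), and 3 higher and 3 lower in FA+LPS against FA (19.8% of all genes tested). C1galt1, which forms the O-glycan core that St3gal1 sialylates, fell by 1.10 ± 0.11 in LPS against Unstim, and Gcnt1, which branches that core, fell by 1.43 ± 0.10. In FA+LPS against FA these gave -0.60 and -1.30, both called. B4galnt1, which extends GM3 to larger gangliosides, fell by 1.05 ± 0.20 and gave -0.70 with fatty acid. Gcnt2, which branches poly-lactosamine, rose by 1.03 ± 0.18 and gave 1.17 with fatty acid. The median difference was 0.02 for these 20 genes, -0.04 for sugar nucleotide synthesis and -0.13 for the transporters in LPS against Unstim, beside -0.02 for all genes tested.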

How the data were processed

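Expression was measured on Illumina mouse bead arrays hybridized with biotinylated cRNA, per the labels' protocols. The authors deposited log2 signals of 45281 probes, not normalized between arrays, and a log2 value table of 25784 probes that equals quantile normalization of those signals within 0.000949; scanning software and background treatment: not given in the sources used here. No detection p-values were at hand, so a probe counted as above background on an array when it passed the 95th percentile of the 19497 probes outside the value table, the fallback set in the design.

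The deposited signals were unlogged, corrected with normexp (offset 50), quantile normalized and taken to log2 (R 4.3.3, limma 3.58.1). Of the probes in the value table, 21476 had 1 gene symbol, 10 had several and 4298 had none. Each gene was read from its brightest probe, and 12961 genes above background on at least 3 arrays entered 1 group-means model of the 15 arrays (11 residual and 3.20 prior degrees of freedom). P-values were two-sided and adjusted by the Benjamini-Hochberg method within each of 6 contrasts. Precision is limited by the number of arrays. The fit was tested on simulated data.

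The members and gene lists were chosen with earlier results of these data known. A member was described on every array if it was called with a change of at least 1.5-fold in LPS against Unstim or FA+LPS against FA, or called at any size in FA against Unstim, FA+LPS against LPS or the interaction; 13 met this. Other members are given by range and count, and those named beside them were called, called with a block, or among the brightest of their step. Gene positions and promoter windows are RefSeq's (GRCm38.p6), matched by symbol and gene identifier.

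Replicate numbers are experiment numbers in the labels, so same-numbered arrays are pairs. Deviations from group means correlated at 0.044 to 0.805 (median 0.222) in 21 same-numbered pairs and at -0.519 to 0.182 (median -0.0745) in 63 others. No arrays were copies of each other (highest correlation within a group 0.993). Alternatives were median scaling, the authors' value table, offset 16, no filter or 8 arrays, experiment or slide as a block, array weights, all probes as features and each array left out; median scaling with FA replicate 1 left out was added after seeing the data.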

Additional observations from a re-analysis of the deposited data

Results flagged for a closer look

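A single array stood apart in 2 of 39 groups of 4 arrays examined among the genes described in full (Dixon's criterion at the 95% level); chance flags about 1 in 20 groups. Galnt1 measured 7.59 in LPS replicate 4, where the nearest of the other LPS arrays was at 8.22 (a gap of 0.848 of the group's range). Mgat5 measured 7.09 in FA+LPS replicate 4, where the nearest of the other FA+LPS arrays was at 6.72 (a gap of 0.873 of the range).

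St3gal5 was higher in FA than in Unstim in all 3 experiments with both arrays and lower in FA+LPS than in LPS in all 4. The interaction was -1.18 on the log2 scale and did not pass the threshold (limma, adjusted p = 0.306). With the replicate block it was -1.28 and was not called either (limma, adjusted p = 0.06).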

How the results depend on the processing

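Among the genes described in full, 31 gene and comparison pairs were called. All 31 were also called with the authors' value table, offset 16, no filter, a filter of 8 arrays, the replicate block, slide as a block, array weights and all probes as features. The last setting still read each gene from its brightest probe, so it is no check of other probes. Of these calls, 21 had another probe of the gene above background. Another probe was called the same way in 10 of the 21, and the opposite way in 0. Median scaling kept 12 of the 31, and 17 with FA replicate 1 left out as well (chosen after seeing the data); the cause was not tested, and no scaling moved the median of all genes by 0.1. Under median scaling the counts of called genes were 3 in LPS against Unstim, 6 in FA+LPS against FA, 0 in FA+LPS against LPS and 4 in FA+LPS against Unstim. With FA replicate 1 left out too they were 7, 11, 0 and 8. Man2a1 in LPS against Unstim, not called at -0.28, turned to 0.0003 under both forms of median scaling. The replicate block raised the count in FA+LPS against LPS from 2 to 4, and raised LPS against Unstim from 14 to 19, FA+LPS against FA from 19 to 21 and FA+LPS against Unstim from 13 to 18. Leaving out 1 array at a time gave counts of 12 to 15 in LPS against Unstim, 0 to 0 in FA against Unstim, 15 to 20 in FA+LPS against FA, 1 to 3 in FA+LPS against LPS, 10 to 16 in FA+LPS against Unstim and 0 to 1 for the interaction. The shares of all genes called under median scaling, the replicate block or left-out arrays are not given here. Changes in these counts therefore cannot be read as particular to this set. The single calls in FA+LPS against LPS came without LPS replicate 1, LPS replicate 4 or FA+LPS replicate 3, and the 1 interaction call, Man2a1, came without FA+LPS replicate 1. In FA+LPS against Unstim, Mgat5 was not called without Unstim replicate 3 or 4 or FA+LPS replicate 3 (adjusted p = 0.0534, 0.0811 and 0.0530), nor St6galnac4 without Unstim replicate 4 (adjusted p = 0.0537). The direction of every called pair held inside the slides that held both groups. Dim probes limit what can be read: 21 of the 55 tested genes were not above background on every array.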

Other observations

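For comparison, 22.3% of all genes tested were called in LPS against Unstim and 19.8% in FA+LPS against FA. Of 27 tested genes for early N-glycan transfer and trimming in the endoplasmic reticulum, 5 were called higher and 2 lower in LPS against Unstim, and 4 higher and 1 lower in FA+LPS against FA. Prkcsh, the beta subunit of glucosidase II, rose by 0.72 ± 0.14 and 0.88 ± 0.13 on the log2 scale, and Mogs, glucosidase I, rose by 0.63 ± 0.10 and 0.65 ± 0.10. Among subunits of the oligosaccharyltransferase, Ddost rose by 0.62 ± 0.12 in LPS against Unstim while Stt3b fell by 0.69 ± 0.12.

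Genes for proteins that read glycans were called in both directions. Of 7 tested genes of the galectin list, which includes Lgals3bp, 3 were called higher and 1 lower in LPS against Unstim, and 2 higher and 1 lower in FA+LPS against FA. Lgals9 rose by 2.09 ± 0.24 and 1.99 ± 0.23, Lgals3bp, a galectin ligand, rose by 2.25 ± 0.21 and 2.32 ± 0.20, and Lgals1 gave -2.11 ± 0.21 and -1.67 ± 0.20. Of 6 tested siglec-type receptor genes, Cd33 was called higher (0.80 ± 0.19 and 1.49 ± 0.18) and Cd22 lower (-0.43 ± 0.10 and -0.35 ± 0.10). None of the 4 tested sialidase and sialate esterase genes was called by limma in either comparison.

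Of 26 tested Golgi matrix and tethering genes, 1 was called higher and 3 lower in LPS against Unstim, and 1 higher and 1 lower in FA+LPS against FA, against 22.3% and 19.8% of all genes tested. Cog6, a subunit of the conserved oligomeric Golgi complex, was lower in both (-0.65 ± 0.14 and -0.65 ± 0.13). Golm1 was called lower in LPS against Unstim (-0.55 ± 0.08) and higher in FA+LPS against LPS (0.44 ± 0.07, adjusted p = 0.00872 in limma).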
